A study of Mus musculus with 8 samples.

Results

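SAGA is a transcription coactivator of several modules, and 2 of them are described here at the level of mRNA in mouse embryonic stem cells (ESCs). The 6 genes were taken by name: Usp22, Atxn7, Atxn7l3 and Eny2 for the deubiquitinase module, and Sf3b3 and Sf3b5 for the splicing factor module. All 6 were found among the 55401 genes of the files, and all 6 were among the 17532 genes that passed the filter on low counts and were tested. Against control, edgeR called 0.753% of the tested genes in Zzz3 auxin and 0.445% in Yeats2 auxin. DESeq2 called 8.5% and 3.31% of the genes to which it gave an adjusted P. Of the 6 genes, only Sf3b3 passed the test in a comparison with control. Its mRNA fell by 30.6% in the Zzz3 auxin libraries (adjusted P = 0.0454 by edgeR), a call that held under 6 of 14 alternative analyses and was lost without either control. Its values in the Yeats2 auxin libraries lay 28.4% below control (adjusted P = 0.0751).

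The deubiquitinase module removes ubiquitin from histone H2B. USP22 is its catalytic subunit, ATXN7L3 and ENY2 are needed for its activity, and ATXN7 tethers the module to the rest of SAGA. SF3B3 and SF3B5 are better known as subunits of SF3b, the part of the U2 small nuclear ribonucleoprotein that binds the branch site of introns, and the same proteins sit in SAGA. ENY2 is likewise shared, with the mRNA export complex TREX-2. ATAC, the complex that was perturbed here, shares an acetyltransferase module with SAGA but has neither of these modules.

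Total RNA was sequenced from 2 Control, 3 Zzz3 auxin and 3 Yeats2 auxin libraries of ESCs that were grown in serum with LIF and 2 inhibitors (2i). In the auxin groups the ATAC subunit ZZZ3 or YEATS2 carried an auxin-inducible degron (AID) and the cells received 500 µM auxin for 24 h, in a background that expresses Tir1, the plant protein through which auxin acts. The labels name neither the line nor the treatment of the controls. For its estimates of RNA metabolism, the study's supplement sets DMSO against auxin within each AID line, without saying which line gave these 2 control libraries, so that depletion, auxin exposure and any difference of line cannot be told apart. Nothing states that libraries of a group came from separate cultures, and P values therefore measure the spread between these libraries, which may be technical. Yeats2 auxin replicates 1 and 3 were closer to each other (chi-square of 3.83 per gene between their counts) than any other pair within a group (22.2 to 54.1), and were kept as separate libraries since they differed by more than sampling noise.

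Reads assigned to genes numbered 14315120 to 27884704 per library. The degron acts on protein, and the mRNA of its target is no check of it: Zzz3 mRNA was at 77.5 to 112 CPM (the reads of a gene relative to the library total, scaled by TMM, the trimmed mean of M values) in the Zzz3 auxin libraries and at 181.9 to 186.5 CPM in the controls, whereas Yeats2 mRNA spanned 43.7 to 103.4 CPM in the Yeats2 auxin libraries and 90.9 to 95.8 CPM in the controls. The 8 ESC markers summed to 5120 to 5295 CPM in the controls, 4548 to 5183 CPM in Zzz3 auxin and 4690 to 5340 CPM in Yeats2 auxin. Their log2 FC was above 0 for 3 of the 8 in Zzz3 auxin and for 5 in Yeats2 auxin. Pou5f1 was higher in all 6 auxin libraries than in both controls (log2 FC 0.62 and 0.55, adjusted P = 0.106 and 0.213 by edgeR). It was at 275.1 CPM in Control replicate 1 and 420.2 CPM in replicate 2. Its longest transcript has 57.6% GC, and the part of GC content in its difference was not tested. Nanog was lower in all 6 than in both controls (log2 FC -0.22 and -0.28, adjusted P = 0.319 and 0.325 by edgeR). Of all genes tested, 35.8% in Zzz3 auxin and 40.3% in Yeats2 auxin did not overlap with control. The 3 ectoderm markers summed to 40.7 to 42.9 CPM in the controls, 48.4 to 71.6 CPM in Zzz3 auxin and 44.8 to 50.2 CPM in Yeats2 auxin, without overlap with control. The 3 mesoderm markers summed to 15.0 to 17.8 CPM in the controls and 12.8 to 21.9 CPM in Zzz3 auxin, which overlapped. In Yeats2 auxin they summed to 11.5 to 14.5 CPM, lower than control without overlap. Zzz3 auxin replicate 1 held the highest Nes (68.0 CPM), Pax6 (2.80 CPM) and T (14.0 CPM), and the lowest Sox1 (0.767 CPM). The 3 endoderm markers summed to 0.767 to 1.54 CPM and the 4 fibroblast markers to 1.23 to 2.07 CPM over all libraries, with Postn at 0 in both controls. The part of these markers in the group differences of the 6 genes was not tested. The libraries also differed by base composition: genes above 55% GC lay, in the median and against their mean over libraries, 0.64 below genes under 43% GC on the log2 scale in Control replicate 1 and 0.47 above them in Zzz3 auxin replicate 3, against -0.08 to 0.17 in the other 6 libraries.

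Levels were compared between the genes as CPM per kilobase of exon. Averaged over the 8 libraries, Sf3b3 was highest at 47.5 CPM per kb (range 40.4 to 61.4). Atxn7l3 followed at 31.1 (23.8 to 38.8), Eny2 at 17.1 (15.0 to 19.6), Usp22 at 16.3 (9.36 to 24.0) and Sf3b5 at 11.9 (9.79 to 15.1), and Atxn7 was lowest at 1.52 CPM per kb (1.17 to 1.89). Neighbours in this order had separate ranges except Eny2 with Usp22 and Usp22 with Sf3b5, which overlapped. The order was the same with the length of the longest transcript in place of all exons. The place of Sf3b5 depends on the gene model: GENCODE gives it 1 exon of 3841 bases, while its RefSeq span is 734 bases, over which its mean would be 62.1 CPM per kb.

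**Figure D1:**
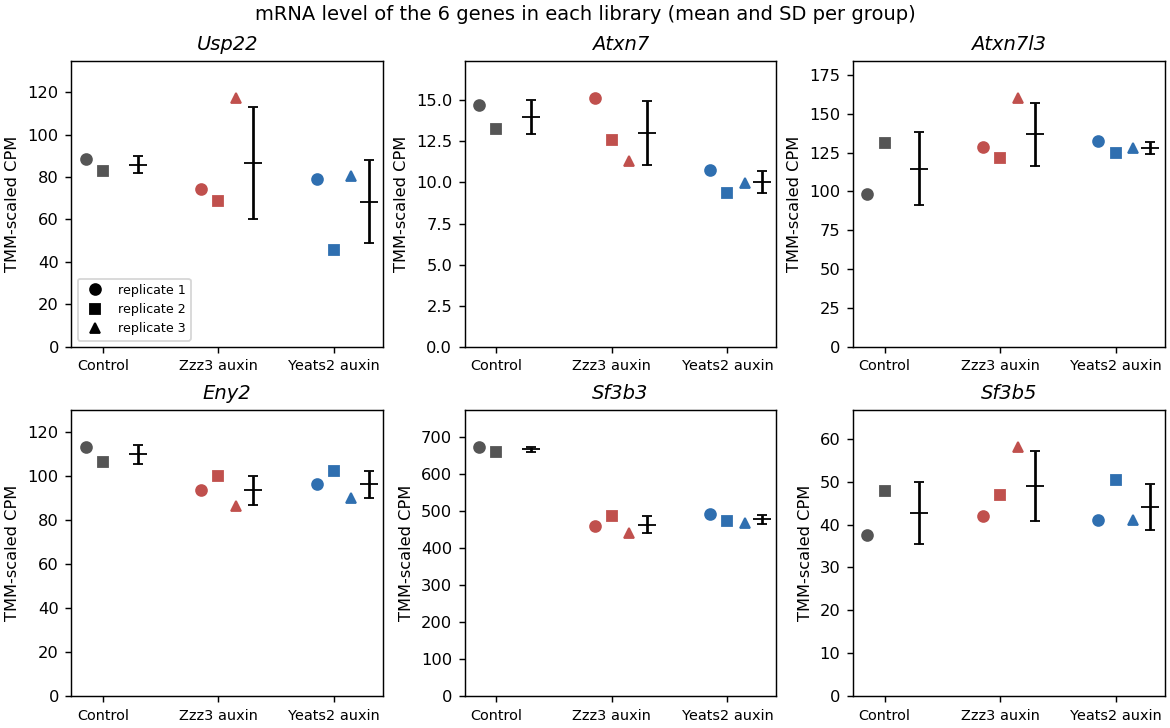
TMM-scaled CPM of each gene (vertical axes, from 0) in every library, by group, with a marker shape per replicate number and the mean and SD of each group in black. Both Control libraries of Sf3b3 (659.7 and 670.8 CPM) stand above all 6 auxin libraries, while Usp22 shows single libraries far from the rest of their group.

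Sf3b3 (ENSMUSG00000033732, 23 exon blocks on the minus strand at chr8:110810239-110846787, GRCm38) encodes the large scaffold subunit of SF3b. It was measured at 670.8 and 659.7 CPM in the controls, at 458.0, 486.1 and 440.6 CPM in the Zzz3 auxin libraries and at 491.4, 471.3 and 467.1 CPM in the Yeats2 auxin libraries. Both controls were higher than every auxin library, and the 2 auxin groups overlapped. The group means were 665.2 ± 7.84 (SD, n = 2), 461.6 ± 22.9 (n = 3) and 476.6 ± 13.0 CPM (n = 3). Between 6584 and 14544 reads per library lay behind these values.

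The log2 fold change (FC) of Sf3b3 against control was -0.53 ± 0.10 (SE) in Zzz3 auxin, with a 95% confidence interval of -0.75 to -0.30 (adjusted P = 0.0454). It was -0.48 ± 0.10 in Yeats2 auxin, with an interval of -0.71 to -0.26 (adjusted P = 0.0751). This fall was not called by edgeR but was called by DESeq2 (adjusted P = 0.00368). Directly compared, Yeats2 auxin differed from Zzz3 auxin by 0.05 ± 0.09, with an interval of -0.16 to 0.25 (adjusted P = 0.923). Both comparisons with control share the same 2 control libraries.

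The call in Zzz3 auxin lies close to the threshold. It was lost when Control replicate 1 (adjusted P = 0.477), Control replicate 2 (0.099), Zzz3 auxin replicate 1 (0.109), Yeats2 auxin replicate 1 (0.11), Yeats2 auxin replicate 2 (0.0769) or Yeats2 auxin replicate 3 (0.11) was left out, whereas Sf3b3 in Yeats2 auxin was called without Zzz3 auxin replicate 3 (adjusted P = 0.0239). The size moved little: over the 14 alternatives the log2 FC of Sf3b3 ran from -0.57 to -0.48 in Zzz3 auxin and from -0.50 to -0.46 in Yeats2 auxin. After correction of every library for GC and length, Sf3b3 was called in both depletions (adjusted P = 0.0224 and 0.0351).

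**Figure D2:**
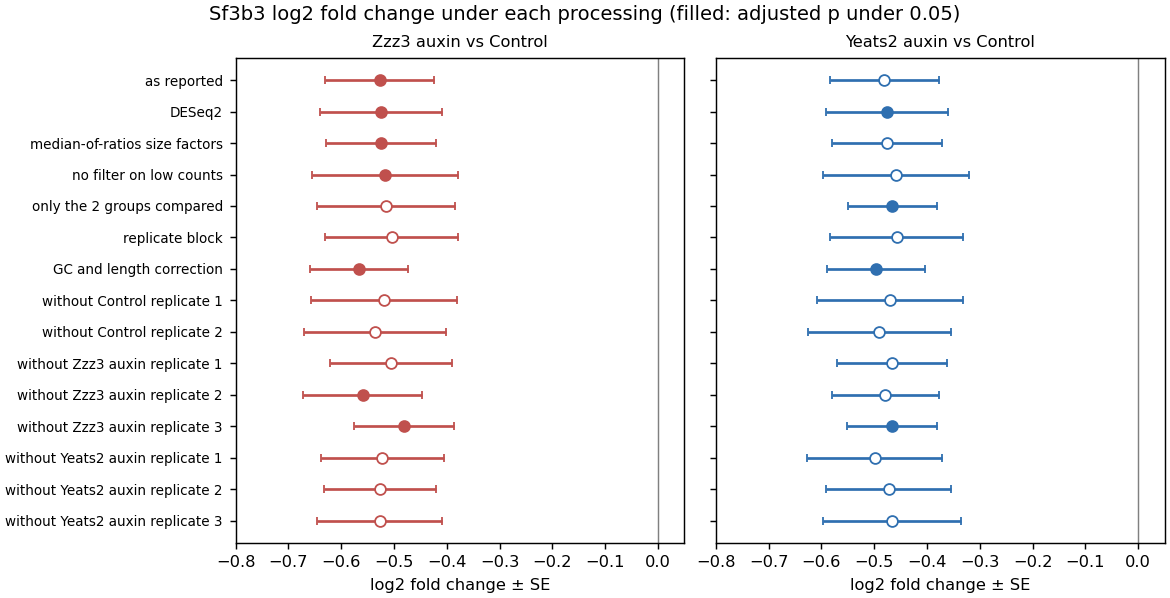
Log2 fold change of Sf3b3 against control (horizontal axis, with SE bars) in the analysis as reported and under 14 alternatives, filled where the adjusted p is under 0.05. The values stay between -0.57 and -0.46 while the calls come and go: 6 of 14 alternatives called Sf3b3 in Zzz3 auxin and 4 of 14 in Yeats2 auxin.

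Sf3b3 starts head to head with Cog4, a subunit gene of the conserved oligomeric Golgi complex on the plus strand. Of the 300 bases of the Sf3b3 promoter in the RefSeq table (chr8:110846754-110847053, minus strand, GRCm38.p6), 280 also belong to a promoter of Cog4, and the sequence is shown because the RNA levels on its 2 sides can be set against each other. In capitals are the matches, on either strand, to CCGGAA (the ETS core), GGCGGG (a GC box), CCAAT and TATAAA.
Sf3b3 promoter: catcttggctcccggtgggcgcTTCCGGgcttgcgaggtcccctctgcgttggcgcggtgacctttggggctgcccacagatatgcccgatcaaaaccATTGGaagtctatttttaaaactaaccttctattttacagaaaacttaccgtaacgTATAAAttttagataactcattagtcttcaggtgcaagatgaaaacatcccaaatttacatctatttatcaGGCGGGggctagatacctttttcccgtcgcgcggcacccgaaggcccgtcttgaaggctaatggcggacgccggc
Each of the 4 motifs matched once. Of all 32851 promoters of the table, 14.9% hold CCGGAA, 35.3% GGCGGG, 37.4% CCAAT and 13.6% TATAAA. AAGATGGC, a YY1-like motif, had no match in this window and occurs in 2.75% of promoters. The Sf3b3 window has 50% GC and 20 CpG dinucleotides, against medians of 52.7% and 7 over all promoters. Among the other 5 genes, only Atxn7 and Atxn7l3 have an entry in the table.

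The values of Cog4 did not separate the groups. It was measured at 97.7 and 117.1 CPM in the controls, 117.2, 112.0 and 108.6 CPM in Zzz3 auxin and 107.9, 117.6 and 109.1 CPM in Yeats2 auxin, and these ranges overlapped. Its log2 FC was 0.07 in Zzz3 auxin (adjusted P = 0.771) and 0.05 in Yeats2 auxin (adjusted P = 0.861). Within a library, the ratio of Sf3b3 to Cog4 in CPM was 6.86 and 5.63 in the controls and 3.91 to 4.55 in the 6 auxin libraries. Their exons overlap on opposite strands over 188 bases, 1.72% of the Sf3b3 exon length, and whether reads were counted by strand is not given in the sources used here. On the same strand, the small nucleolar RNA genes Gm22193 and Snord111 share 76 and 69 bases with Sf3b3 exons. The part of these overlaps was not tested. Cog4 was chosen after its position was seen.

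Sf3b5 (ENSMUSG00000078348, chr10:13005343-13009183, plus strand) encodes the smallest protein of the splicing module, and its gene has no intron. It was at 37.6 and 47.8 CPM in the controls, 42.0, 46.9 and 58.0 CPM in Zzz3 auxin and 41.2, 50.3 and 41.0 CPM in Yeats2 auxin. The groups overlapped, with the lowest value in Control replicate 1 and the highest in Zzz3 auxin replicate 3, the 2 libraries that stand apart in GC. Its log2 FC was 0.20 ± 0.17 in Zzz3 auxin (interval -0.18 to 0.57, adjusted P = 0.539) and 0.05 ± 0.17 in Yeats2 auxin (interval -0.32 to 0.42, adjusted P = 0.919), and 0.31 and 0.12 with the GC and length correction. Leaving out Control replicate 1 gave 0.03 in Zzz3 auxin, and leaving out Control replicate 2 gave 0.38. The ratio of Sf3b3 to Sf3b5 in CPM within a library was 17.8 and 13.8 for Control, 10.9, 10.4 and 7.59 for Zzz3 auxin and 11.9, 9.36 and 11.4 for Yeats2 auxin, without overlap between control and auxin libraries.

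The other SF3b subunit genes were read beside Sf3b3 and Sf3b5. Of the 5 tested (Sf3b1, Sf3b2, Sf3b4, Sf3b6 and Phf5a), 0 were called in either depletion by edgeR, and 2 had an unadjusted P under 0.05 in each. Over all genes tested, 21.7% in Zzz3 auxin and 14.6% in Yeats2 auxin had such a P value. Phf5a, which encodes a small subunit at the branch site pocket, had the lowest log2 FC at -0.48 ± 0.14 in Zzz3 auxin (adjusted P = 0.0918) and -0.36 ± 0.14 in Yeats2 auxin (adjusted P = 0.256). Sf3b2 had the highest, at 0.41 ± 0.13 (adjusted P = 0.118) and 0.32 ± 0.13 (adjusted P = 0.286). The median of the 5 genes was -0.20 and -0.18, against 0.01 and -0.01 over all genes tested. SF3B3 is related by fold to DDB1 and CPSF1, and 0 of these 2 genes were called: the log2 FC was 0.00 and 0.08 for Ddb1 and 0.40 and 0.54 for Cpsf1.

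**Figure D3:**
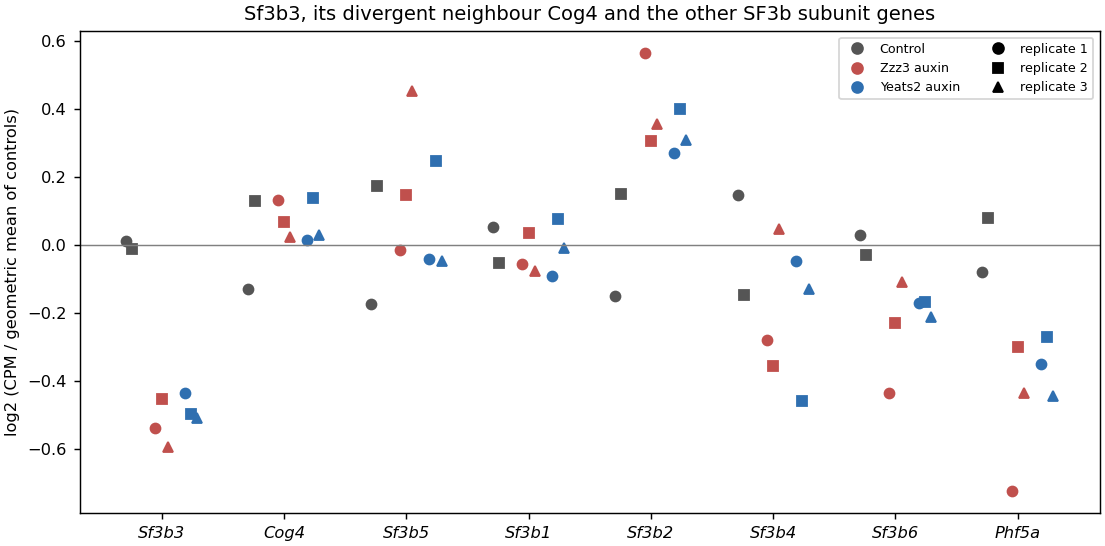
Level of Sf3b3, of its head-to-head neighbour Cog4 and of the other SF3b subunit genes in each library, as log2 of CPM over the geometric mean of both controls (vertical axis), coloured by group. Sf3b3 lies between -0.59 and -0.44 in the 6 auxin libraries, Cog4 between 0.01 and 0.14, and Sf3b2 and Phf5a lie on opposite sides of 0.

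Usp22 (ENSMUSG00000042506, chr11:61151785-61175055, minus strand), the gene of the catalytic subunit, was at 88.6 and 83.0 CPM in the controls. In Zzz3 auxin it was at 74.4, 68.9 and 117.1 CPM, and in Yeats2 auxin at 79.0, 45.7 and 80.3 CPM. Single libraries stood far from their group, Zzz3 auxin replicate 3 above all others and Yeats2 auxin replicate 2 below all others, with a coefficient of variation of 30.4% and 28.7%. All 3 Yeats2 auxin libraries were below both controls, whereas Zzz3 auxin overlapped them. The log2 FC was 0.01 ± 0.26 in Zzz3 auxin (interval -0.57 to 0.60, adjusted P = 0.986) and -0.33 ± 0.26 in Yeats2 auxin (interval -0.91 to 0.25, adjusted P = 0.593). Without Yeats2 auxin replicate 2 the latter was -0.11, and the direction in Zzz3 auxin turned to -0.25 without Zzz3 auxin replicate 3 and to -0.03 without Control replicate 2. Differences in Usp22 smaller than the distance from an estimate to the ends of its interval were not detectable here.

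Atxn7l3 (ENSMUSG00000059995, chr11:102289300-102296631, minus strand) encodes the adaptor that USP22 needs for activity. It was at 98.1 and 131.2 CPM in the controls, 128.8, 121.4 and 159.9 CPM in Zzz3 auxin and 132.2, 124.5 and 127.8 CPM in Yeats2 auxin. The groups overlapped, and the lowest and the highest value again fell in Control replicate 1 and Zzz3 auxin replicate 3. The log2 FC was 0.25 ± 0.15 in Zzz3 auxin (adjusted P = 0.364) and 0.16 ± 0.15 in Yeats2 auxin (adjusted P = 0.663). Leaving out Control replicate 1 gave 0.05 for Zzz3 auxin and -0.03 for Yeats2 auxin, and leaving out Control replicate 2 gave 0.48 and 0.39. Its longest transcript has 55.6% GC, the highest of the 6 genes, and with the GC and length correction its log2 FC was 0.02 and -0.01.

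Eny2 (ENSMUSG00000022338, chr15:44428042-44438256, plus strand) encodes the small protein that holds the module together and is shared with TREX-2. It was at 113.0 and 106.6 CPM in the controls, 93.8, 99.9 and 86.5 CPM in Zzz3 auxin and 96.6, 102.2 and 90.0 CPM in Yeats2 auxin. All 6 auxin libraries were below both controls, but neither difference passed the test: the log2 FC was -0.23 ± 0.11 in Zzz3 auxin (interval -0.48 to 0.02, adjusted P = 0.266) and -0.19 ± 0.11 in Yeats2 auxin (interval -0.44 to 0.06, adjusted P = 0.463). At 39.3%, the Eny2 transcript has the lowest GC content of the 6, and with the GC and length correction its log2 FC was -0.015 (adjusted P = 0.965) and -0.0009 (adjusted P = 0.997). Eny2 and its neighbour Nudcd1, on the opposite strand, share 266 bases of exon, 4.62% of the Eny2 exon length, and the log2 FC of Nudcd1 was -0.17 and -0.10. The small nuclear RNA gene Gm22392, on the same strand, shares 107 bases with Eny2 exons.

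Eny2 also has close copies in the genome, which could share its reads. The closest, Gm16373, matches the Eny2 transcript at 96% with 12 mismatches over bases 130 to 432, which cover nearly all of the coding sequence (bases 127 to 429). The 60 bases with the most mismatches, 4, are shown because a read needs such positions to be placed at one gene. They lie within the coding sequence (bases 89 to 148 of 303), and capitals mark the bases that differ.
Eny2: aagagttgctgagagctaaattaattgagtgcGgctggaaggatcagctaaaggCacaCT
Gm16373: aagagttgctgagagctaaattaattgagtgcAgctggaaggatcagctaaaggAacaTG
Gm16373 received 0 or 1 reads per library (3 in all), AC131065.3, which matches at 89.7% over 302 bases, 0 to 2 (4 in all), and Gm48452, which matches at 87.7% over 187 bases, 0. Reads that align to both genes equally well are not counted for either, and how many there were was not tested. By the same search, with at least 100 aligned bases at 87% identity or more, Usp22, Atxn7, Atxn7l3 and Sf3b3 had no copy apart from genes that overlap them. The long exon of Sf3b5 was left out of this search.

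Atxn7 (ENSMUSG00000021738, chr14:13961440-14107302, plus strand), the gene of the tethering subunit, had the lowest level of the 6, on 169 to 394 reads per library. It was at 14.7 and 13.2 CPM in the controls, 15.1, 12.6 and 11.3 CPM in Zzz3 auxin and 10.8, 9.37 and 9.97 CPM in Yeats2 auxin. All Yeats2 auxin libraries were below every library of the other 2 groups, and Zzz3 auxin overlapped the controls. The log2 FC was -0.10 ± 0.17 in Zzz3 auxin (adjusted P = 0.777) and -0.48 ± 0.17 in Yeats2 auxin (unadjusted P = 0.0172, adjusted P = 0.234). Yeats2 auxin against Zzz3 auxin gave -0.38 ± 0.16 (unadjusted P = 0.0317, adjusted P = 0.779). Neither passed over all genes. Thoc7, whose span overlaps Atxn7 on the opposite strand without shared exon bases, was at -0.42 (log2 FC, adjusted P = 0.0904) in Zzz3 auxin and at -0.34 (adjusted P = 0.221) in Yeats2 auxin.

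**Figure D4:**
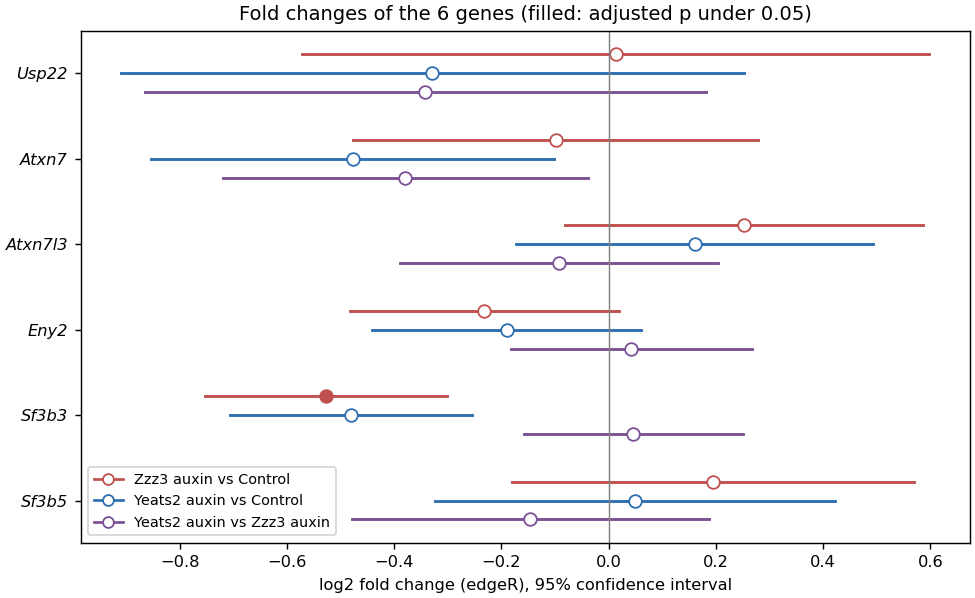
Log2 fold changes of the 6 genes (horizontal axis) with 95% confidence intervals in the 3 comparisons, filled where the adjusted p is under 0.05. Sf3b3 in Zzz3 auxin, at -0.53, carries the one filled point, and the widest intervals belong to Usp22.

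Across the 6 genes, 1 was called in Zzz3 auxin against control, where 0.753% of all tested genes were called (87 higher and 45 lower). In Yeats2 auxin edgeR called 0, against a background of 0.445% (58 higher and 20 lower). DESeq2 called 1 of the 6, Sf3b3, in each depletion, where it called 8.5% in Zzz3 auxin and 3.31% in Yeats2 auxin of the 13112 genes to which it gave an adjusted P. Between the depletions edgeR called 0 of the 6 genes and 0% of all genes, with 1095 genes at an unadjusted P under 0.05, while DESeq2 called 0 of the 6 and 3 of all genes (0.0171%). An unadjusted P under 0.05 was reached by 1, 2 and 1 of the 6 genes in Zzz3 auxin, Yeats2 auxin and the direct comparison, where 21.7%, 14.6% and 6.25% of all genes reached it.

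The groups did not overlap for 2 of the 6 genes in Zzz3 auxin (Sf3b3 and Eny2, both lower), where 35.8% of all genes did not overlap. The same held for 4 in Yeats2 auxin (Sf3b3, Eny2, Atxn7 and Usp22, all lower), against 40.3% of all genes. In the direct comparison it held for 1 (Atxn7, lower in Yeats2 auxin), against 11.1%. These shares count both directions. Lower without overlap were 3318, 3683 and 1021 of the 17532 genes in Zzz3 auxin, Yeats2 auxin and the direct comparison. With Zzz3 auxin as the reference, the log2 FC in Yeats2 auxin was -0.34 ± 0.24 for Usp22, -0.09 ± 0.14 for Atxn7l3, 0.04 ± 0.10 for Eny2 and -0.15 ± 0.15 for Sf3b5 (adjusted P = 0.784, 0.889, 0.939 and 0.85). The median log2 FC of the 6 genes was -0.04, -0.26 and -0.12 in these comparisons, against 0.01, -0.01 and -0.01 over all genes tested.

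The deubiquitinase subunits have paralogs, whose levels per kb can be set beside theirs. Usp22 made up 81.7% to 93.0% of the level of Usp22, Usp27x and Usp51 together, 3 ubiquitin proteases that work with ATXN7L3 and ENY2. Atxn7 made up 34.2% to 49.9% of the level of the ATXN7 family, beside Atxn7l2 with 37.0% to 53.2% and Atxn7l1 with 9.87% to 15.2%. Of the 5 paralogs tested, 0 were called in either depletion by edgeR, and 2 had an unadjusted P under 0.05 in each, against 21.7% and 14.6% of all genes. The median log2 FC of the paralogs was -0.24 in Zzz3 auxin and -0.12 in Yeats2 auxin.

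Atxn7l3b, which encodes a cytoplasmic relative of ATXN7L3 that binds ENY2, was at 195.2 and 177.6 CPM in the controls, 115.2, 138.5 and 100.3 CPM in Zzz3 auxin and 131.6, 136.2 and 131.5 CPM in Yeats2 auxin. All auxin libraries were below both controls. Its log2 FC was -0.66 ± 0.13 in Zzz3 auxin (adjusted P = 0.0505) and -0.49 ± 0.14 in Yeats2 auxin (adjusted P = 0.147). Within a library, the ratio of Atxn7l3 to Atxn7l3b in CPM was 0.503 and 0.739 for Control, 1.12, 0.876 and 1.59 for Zzz3 auxin and 1.00, 0.915 and 0.971 for Yeats2 auxin. The lowest and the highest ratio fell in Control replicate 1 and Zzz3 auxin replicate 3, the 2 libraries that stand apart in GC. The longest transcripts of these genes have 55.6% and 46.6% GC, and the part of GC content in the ratio was not tested. Atxn7l3b is named in addition to the genes the naming rule gives, after its values were seen.

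Usp51 had the lowest log2 FC of the paralogs, -1.04 ± 0.37 in Zzz3 auxin (adjusted P = 0.144) and -1.58 ± 0.37 in Yeats2 auxin (adjusted P = 0.104), on 11 to 38 reads per library. Its levels were 1.88 and 1.41 CPM in the controls, 0.691, 0.586 and 1.21 CPM in Zzz3 auxin and 0.58, 0.615 and 0.435 CPM in Yeats2 auxin. The highest were Atxn7l2 in Zzz3 auxin (0.40) and Usp27x in Yeats2 auxin (-0.03).

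Of the 5 genes of TREX-2, the other complex of ENY2, edgeR called 1 in Zzz3 auxin, Mcm3ap, and 0 in Yeats2 auxin. Over all tested genes it called 0.753% and 0.445%. Mcm3ap encodes GANP, the scaffold of TREX-2, and rose in Zzz3 auxin by a log2 FC of 0.96 ± 0.16 (adjusted P = 0.0327), from 193.4 and 206.0 CPM in the controls to 474.0, 380.6 and 313.3 CPM. In Yeats2 auxin it was at 314.5, 361.8 and 344.0 CPM, with a log2 FC of 0.77 (adjusted P = 0.0721). The call in Zzz3 auxin was lost without Control replicate 1 (adjusted P = 0.458), Control replicate 2 (0.0858), Zzz3 auxin replicate 1 (0.0522) and each Yeats2 auxin replicate (0.0734, 0.0645 and 0.0808). It was also lost with only the groups compared (0.169), and so held under 7 of 14 alternatives. In Yeats2 auxin, Mcm3ap was called under 5 of 14: with DESeq2 (0.00189), without the filter (2.36e-05), with only the groups compared (0.0056), and without Zzz3 auxin replicate 1 (0.0322) or replicate 3 (0.0119). The lowest TREX-2 genes were Cetn2 in Zzz3 auxin (-0.40, adjusted P = 0.131) and Cetn3 in Yeats2 auxin (-0.20), both centrin genes. An unadjusted P under 0.05 was reached by 3 of the 5 genes in Zzz3 auxin and 1 in Yeats2 auxin, against 21.7% and 14.6% of all genes. The list median was -0.08 and -0.03.

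The module acts against the enzymes that attach ubiquitin to H2B, and 0 of these 5 genes were called in either depletion by edgeR. An unadjusted P under 0.05 was reached by 3 in each, against 21.7% and 14.6% of all genes. Rnf40, a subunit gene of the ubiquitin ligase, had the highest log2 FC, 0.55 ± 0.18 in Zzz3 auxin (adjusted P = 0.118) and 0.56 ± 0.18 in Yeats2 auxin (adjusted P = 0.184). The lowest were the conjugating enzyme gene Ube2b in Zzz3 auxin (-0.56 ± 0.13, adjusted P = 0.0669) and the adaptor gene Wac in Yeats2 auxin (-0.52 ± 0.16, adjusted P = 0.176). The list median was -0.30 and -0.22.

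Of 8 genes for other H2B deubiquitinases and their cofactors, 0 were called in either depletion by edgeR, with medians of 0.01 and -0.05. An unadjusted P under 0.05 was reached by 2 and 0 of them, against 21.7% and 14.6% of all genes. Usp44 was highest (0.66 in Zzz3 auxin, adjusted P = 0.122, and 0.43 in Yeats2 auxin), and the lowest were Usp12 in Zzz3 auxin (-0.38) and Usp46 in Yeats2 auxin (-0.20). The 16 genes of the SAGA core and acetyltransferase modules likewise had 0 calls by edgeR, 7 genes at an unadjusted P under 0.05 in each depletion and medians of 0.14 and 0.05. Among them Tada1 was lowest (-0.73 ± 0.19, adjusted P = 0.0831, and -0.51 ± 0.19, adjusted P = 0.25) and Supt3 highest (0.52 and 0.57). On the opposite strand, Pogk shares 1054 bases with Tada1, 25.6% of the Tada1 exon length, and Gm15853 shares 380. Whether reads were counted by strand is not given, and the part of this overlap was not tested.

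**Figure D5:**
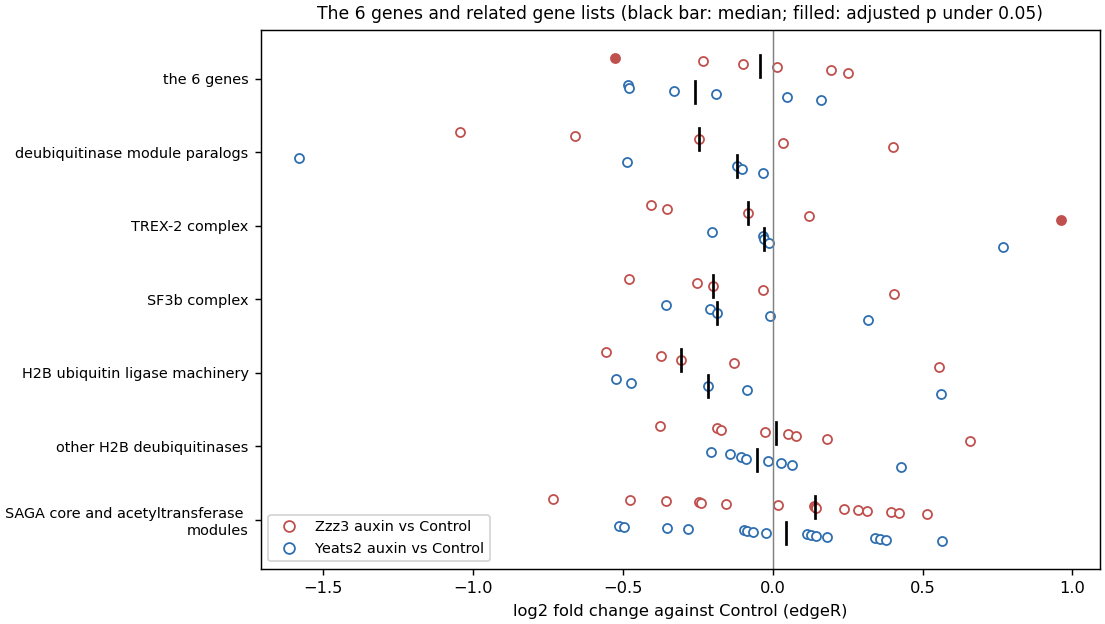
Log2 fold change against control (horizontal axis) of each gene in the 6 genes and 6 related lists, in Zzz3 auxin (red) and Yeats2 auxin (blue), with the list median as a black bar. The filled points, with an adjusted p under 0.05, are Sf3b3 at -0.53 and Mcm3ap at 0.96, both in Zzz3 auxin.

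For each of the 6 genes, the 2 protein-coding genes with the most similar profile over the 8 libraries were found among 9870 genes averaging 5 CPM or more, by the mean absolute difference of centred log2 CPM. They were Tmx3 (0.03) and Wdhd1 (0.03) for Sf3b3, Timm17b (0.04) and 1110038F14Rik (0.04) for Sf3b5, and Grpel2 (0.03) and Ppat (0.03) for Eny2. For Atxn7l3 they were Daxx (0.03) and Ell (0.03), for Atxn7 Apela (0.05) and Phf11d (0.06), and for Usp22 Zfp687 (0.06) and Cln6 (0.07). None of the 6 genes was among the nearest genes of another. With only 2 of 9870 genes kept for each, this cannot show whether the 6 genes vary together. These profiles share libraries, depth and the GC differences given above.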

How the data were processed

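Total RNA of 8 ESC libraries was compared over the groups of the labels. The authors deposited raw counts per gene without normalization. According to the methods of the study and the submitters' processing notes, reads were trimmed, freed of ribosomal RNA, aligned to mm10 with STAR 2.5.3a and counted with HTSeq 0.6.1p1. The labels name poly(A) RNA as the molecule, whereas the protocol describes ribosomal RNA depletion. The 5 tallies of unassigned reads were left out (those outside exons came to 42.9% to 59.8% of the assigned reads). Of 55401 genes, 55141 had a GENCODE annotation (GRCm38).

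Genes were kept by filterByExpr, scaled by TMM and tested with edgeR 4.0.16 (robust quasi-likelihood, all 8 libraries, R 4.3.3), two-sided, with Benjamini-Hochberg adjustment over 17532 genes, and called at an adjusted P under 0.05. The SE is the log2 FC divided by the square root of F. Alternatives were DESeq2 1.42.0, median-of-ratios factors, no filter, only the groups compared, a replicate block, a GC and length correction (lowess span 0.3) and each library left out. The scripts were tested on simulated data. Copies were searched with BLAST 2.17.0, and promoters came from RefSeq. Figures were drawn with matplotlib 3.10.9.

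The 6 genes and all lists were chosen with earlier results of these data known, and the overlapping neighbours after the files were seen. Named were the 6 genes, from each related list the called genes and the largest rise and fall, and the nearest profiles. Assigned reads numbered 14315120 to 27884704 per library, and counting error weighs most on genes with few reads, such as Usp51 and Atxn7.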

Additional observations from a re-analysis of the deposited data

How the results depend on the processing

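The fall of Sf3b3 in Zzz3 auxin kept its direction under all 14 alternatives, but the number of the 6 genes called went from 1 to 0 with only the groups compared and with the replicate block, and ranged from 0 to 1 as single libraries were left out. In Yeats2 auxin it went from 0 to 1 with DESeq2, with only the groups compared and with the GC and length correction, and ranged from 0 to 1 without single libraries. In the direct comparison it was 0 throughout. The cause of these shifts was not tested. Over all genes, the calls in Zzz3 auxin, Yeats2 auxin and the direct comparison were 1114, 434 and 3 with DESeq2, 1542, 553 and 117 without the filter, 42, 32 and 0 with the replicate block, 0, 454 and 0 with only the groups compared, and 167, 132 and 0 with the GC and length correction, and without single libraries they ranged from 0 to 841 in Zzz3 auxin and from 0 to 217 in Yeats2 auxin. Replicate numbers did not pair the libraries (same-number correlations of deviations -0.17 to 0.20). Directions turned as follows: Usp22 in Zzz3 auxin to -0.2096 with the replicate block and -0.0358 with the GC and length correction, and Atxn7l3 in Yeats2 auxin to -0.0064 with that correction. Without single libraries, the log2 FC ranged from -0.25 to 0.16 for Usp22 and from -0.2044 to 0.0017 for Atxn7 in Zzz3 auxin, from -0.0345 to 0.388 for Atxn7l3 and from -0.11 to 0.24 for Sf3b5 in Yeats2 auxin, and from -0.1756 to 0.036 for Atxn7l3 and -0.0074 to 0.0897 for Eny2 in the direct comparison. With a control left out, the remaining control is assumed to vary like the other groups.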
